A study of Sorghum bicolor with 177 samples.

Results

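Sobic.008G004800 and Sobic.005G004500 are the 2 sorghum genes whose closest Arabidopsis gene in the deposited annotation is FER4 (AT2G40300, "ferritin 4"). They were chosen by gene identifier and make up 2 of the 34129 genes of the expression table. Sequencing of poly-A RNA from hydroponically grown Sorghum bicolor BTx623, the sorghum reference line, measured them in roots and in discs of a young leaf. Each value is the authors' mean TPM (transcripts per 1000000, a length-scaled abundance) for 1 tissue, time and nutrient solution, in 57 columns (26 leaf, 31 root).

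All plants were raised in a greenhouse in a modified Hoagland's solution and then moved to 1 of 5 solutions. Iron limitation (FeLim in the labels) had 0 µM NaFeEDTA and 1 µM ZnSO4. Iron excess (FeEX) had 1 mM NaFeEDTA and 1 µM ZnSO4. Zinc limitation (ZnLim) had 0 µM ZnSO4 and 50 µM NaFeEDTA, and zinc excess (ZnEx) had 100 µM ZnSO4 and 50 µM NaFeEDTA. The control had 1 µM ZnSO4 and 50 µM NaFeEDTA. Leaves were taken before transfer (0 h) and on days 2, 4, 7, 14 and 21, and roots on the same occasions and also at 1 h. Most columns average 3 libraries from individual plants, some plants were sampled at more than 1 time, and at 0 h there is a control column only.

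Ferritin is a protein shell that takes up iron ions and stores them as a mineral inside its cavity, which keeps free iron from driving the formation of reactive oxygen species. Plant ferritins carry a transit peptide and are mostly found in plastids. In Arabidopsis and maize, ferritin transcripts are known to accumulate when iron is plentiful and to be held low when iron is scarce. In Arabidopsis leaves, ferritin is known mainly as a buffer against surplus iron rather than as the sole store for photosynthesis.

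The columns carried the markers of their labelled tissues. Transcripts of the small subunit of Rubisco (1 gene in the list) stood at 5175 to 21700 TPM in leaf columns and at 0.107 to 3.586 TPM in root columns. The 4 CASP-like genes, whose products build the Casparian strip of the root endodermis, summed to 16.62 to 146.4 TPM in root columns and to 0 to 3.626 TPM in leaf columns. Between 15533 and 17977 genes reached 1 TPM in leaf columns and between 18606 and 20758 in root columns. The number of reads behind a value cannot be read from TPM and is unknown.

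Under iron limitation, the leaf transcripts of both ferritin genes fell to a few TPM within 1 week. Sobic.008G004800 stood at 118.9, 17.18, 4.59, 4.319 and 1.804 TPM in iron-limited leaves at 2, 4, 7, 14 and 21 d, against 144.9, 53.18, 141.6, 183.2 and 332.0 TPM in control leaves. Sobic.005G004500 stood at 71.94, 12.95, 3.298, 2.509 and 0.9607 TPM in iron-limited leaves, against 76.82, 34.27, 95.65, 91.48 and 139.6 TPM in control leaves. Both genes were below the control at 5 of 5 times, and from 4 d on every iron-limited value was below every control value. How many of all genes were separated in this way is not given here. At 2 d the iron-limited values still lay within the range of the control leaves. The level in iron-limited leaves was lower at each time than at the one before.

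The SE of each fitted leaf difference pooled the spread of all leaf columns after 0 h, those of the other solutions included. The fitted difference was -3.71 ± 0.95 log2 units for Sobic.008G004800 and -3.36 ± 0.92 for Sobic.005G004500. The adjusted p was 0.0306 and 0.036 (limma with Benjamini-Hochberg adjustment over 17067 genes). Both genes were thus called lower, in a comparison in which 1.87% of the genes tested were called lower and 6.77% higher (8.64% in either direction). By size of the decrease they were the 5th and 11th lowest of the 17067 differences, whose median was 0.24. The sampling time served as the replicate, so the p-values rest on variation among times rather than among plants, and several plants contributed to more than 1 time. In leaf and root tissue, fewer cells of a type and less RNA per cell cannot be told apart.

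The call rested on the later times. Over 2 and 4 d the fitted iron limitation effect averaged -0.93 log2 units for Sobic.008G004800 and -0.72 for Sobic.005G004500, and over 7, 14 and 21 d it averaged -5.56 and -5.12. The difference of late minus early was -4.63 ± 1.69 for Sobic.008G004800 and -4.41 ± 1.66 for Sobic.005G004500 and did not pass the threshold (limma, adjusted p = 0.12 and 0.129), where 0.545% of genes were called lower and 2.96% higher (3.51% in either direction). Fitted on 7, 14 and 21 d alone, the effects were -5.56 ± 0.73 and -5.12 ± 0.68 (limma, adjusted p = 0.000521 for each). Without 7, 14 or 21 d neither gene passed the threshold, and the smallest differences, -2.91 and -2.66, were those without 21 d.

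**Figure D1:**
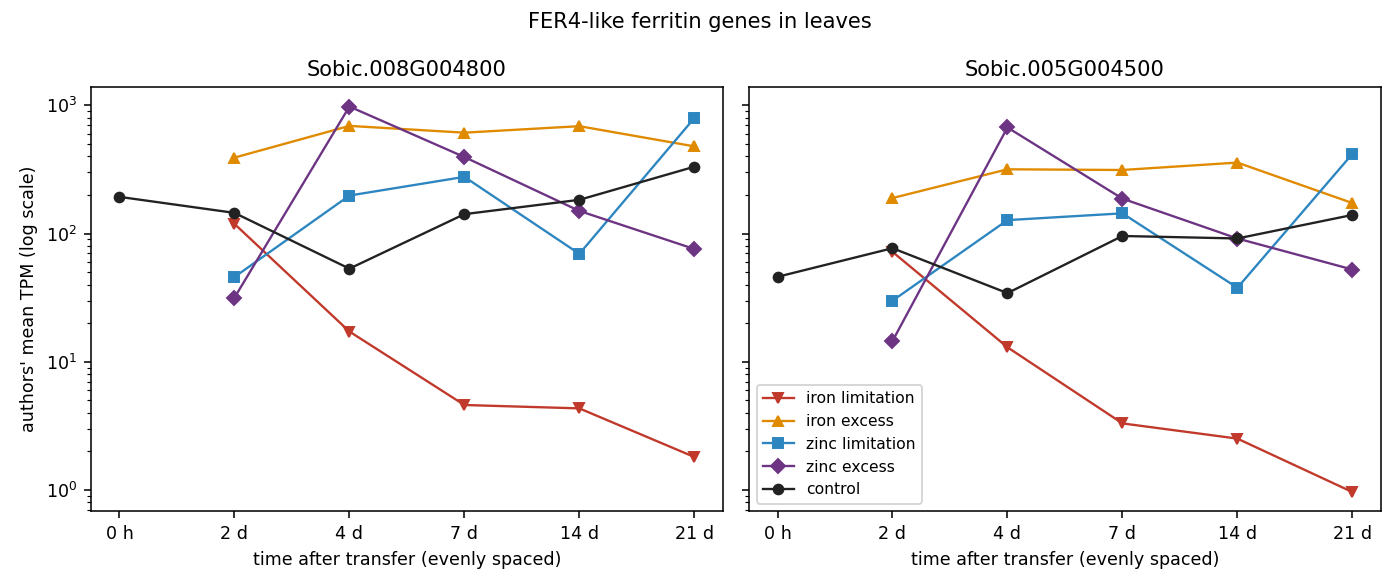
Authors' mean TPM (log scale) of Sobic.008G004800 (left) and Sobic.005G004500 (right) in leaves against time, evenly spaced, with 1 line per solution and 1 point per column. Iron-limited leaves drop to 1.804 and 0.9607 TPM at 21 d, iron-excess leaves stay at 391.0 TPM or more for Sobic.008G004800 and at 172.9 TPM or more for Sobic.005G004500, and the lines of the zinc solutions cross the control line.

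Iron excess gave high and steady leaf levels. Sobic.008G004800 stood at 391.0, 691.6, 612.3, 688.1 and 478.7 TPM in iron-excess leaves at 2, 4, 7, 14 and 21 d, each above the control leaf of the same time. Sobic.005G004500 stood at 189.1, 317.0, 313.1, 357.7 and 172.9 TPM in iron-excess leaves, also above the control at 5 of 5 times. For both genes the lowest iron-excess value exceeded the highest control value. The share of all genes separated in this way is not given here. The spread over times was small: the highest value was 1.77 times the lowest for Sobic.008G004800 and 2.07 times for Sobic.005G004500 in iron-excess leaves, against 6.24 and 4.07 times in control leaves.

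The fitted difference of iron excess minus control in the leaf was 1.93 ± 0.95 log2 units for Sobic.008G004800 and 1.68 ± 0.92 for Sobic.005G004500. These were the 3rd and 5th highest of 17067 differences, but neither passed the threshold (limma, adjusted p = 0.999 for each). No gene did: limma called 0 of 17067 (0%), with 518 genes at an unadjusted p under 0.05. Fitted on the iron-excess and control columns alone, the SE was smaller. The differences were then 1.93 ± 0.37 and 1.68 ± 0.34, which did not pass either (limma, adjusted p = 0.408 for each). Late minus early, the iron excess effect differed by -1.04 for Sobic.008G004800 and -0.91 for Sobic.005G004500 (limma, adjusted p = 1 for each), where 0 genes were called and 194 had an unadjusted p under 0.05.

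Set directly against iron limitation, iron excess gave one of the largest differences of the leaf. The level of Sobic.008G004800 in iron-excess leaves was 3.29 times that in iron-limited leaves at 2 d, 40.3 times at 4 d, 133 times at 7 d, 159 times at 14 d and 265 times at 21 d. The matching ratios for Sobic.005G004500 were 2.63, 24.5, 94.9, 143 and 180. The fitted difference of iron excess minus iron limitation was 5.63 ± 0.95 log2 units for Sobic.008G004800 and 5.05 ± 0.92 for Sobic.005G004500 (limma, adjusted p = 0.0079 and 0.00832). Both were called higher, in a comparison that called 2.4% of genes higher and 5.94% lower (8.34% in either direction). They ranked 2nd and 3rd highest among 17067 genes. The levels followed the order iron excess, control, iron limitation from high to low at 5 of 5 times for both genes. On 7, 14 and 21 d alone the differences were 7.07 ± 0.73 and 6.45 ± 0.68 (limma, adjusted p = 8.66e-05 and 9.5e-05). Without 7, 14 or 21 d the adjusted p was between 0.0517 and 0.127 for both genes. The comparisons with the control and this one share the iron-limited and iron-excess columns and so are not independent.

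Chlorophyll-binding transcripts moved with the late iron-limited columns. The summed level of the 8 LHCB-like and PSAF-like genes, which encode light-harvesting and photosystem I proteins, was 55310, 28960 and 20030 TPM in iron-limited leaves at 7, 14 and 21 d, against 108300, 77780 and 55330 TPM in control leaves. Their part in the ferritin result was not tested. The same sum was also low in some other columns, which were picked after their values were seen. It was 25440 TPM in zinc-limited leaves at 21 d, where Sobic.008G004800 stood at 795.8 TPM, and 26290 TPM in zinc-excess leaves at 21 d, where it stood at 75.74 TPM. In zinc-excess leaves at 2 d the sum was 48580 TPM with Sobic.008G004800 at 31.55 TPM, against 98450 and 144.9 TPM in control leaves. In iron-excess leaves at 21 d it was 44920 TPM with Sobic.008G004800 at 478.7 TPM, against 55330 and 332.0 TPM in control leaves.

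Zinc supply gave no fixed direction in the leaf, although both ferritin genes varied widely there. In zinc-excess leaves at 2, 4, 7, 14 and 21 d, Sobic.008G004800 stood at 31.55, 979.1, 395.2, 150.0 and 75.74 TPM and Sobic.005G004500 at 14.48, 672.0, 187.2, 91.42 and 52.36 TPM. Both genes were far below the control leaf at 2 d, at their highest value of the whole table at 4 d, and lower at each later time. In zinc-limited leaves Sobic.008G004800 stood at 45.76, 197.8, 276.8, 69.39 and 795.8 TPM, and Sobic.005G004500 at 29.9, 127.2, 143.7, 37.72 and 417.9 TPM. These were below the control at 2 and 14 d and above it at 4, 7 and 21 d. At 4 d in zinc excess, Sobic.008G004800 was the 115th and Sobic.005G004500 the 163rd most abundant of all genes.

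The fitted zinc differences in the leaf were small beside this spread. Zinc excess minus control was 0.22 ± 0.95 log2 units for Sobic.008G004800 and 0.30 ± 0.92 for Sobic.005G004500 (limma, adjusted p = 0.912 and 0.872), where 0.0293% of genes were called. Zinc limitation minus control was 0.21 ± 0.95 and 0.29 ± 0.92 (limma, adjusted p = 1 for each), where 0 of 17067 genes were called and 192 had an unadjusted p under 0.05. Their sign turned with single times left out. Without 4 d, zinc excess minus control was -0.77 for Sobic.008G004800 and -0.69 for Sobic.005G004500, and zinc limitation minus control was -0.20 and -0.11. Without 21 d, zinc limitation minus control was -0.048 and -0.036, and without 7 d, zinc excess minus control was -0.10 for Sobic.008G004800. The control leaf at 4 d, 53.18 TPM for Sobic.008G004800, was itself the lowest of the control leaves.

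The control, zinc-limited and zinc-excess plants received the same 50 µM iron. Over their 16 leaf columns, 0 h included, Sobic.008G004800 spanned a 31-fold range and Sobic.005G004500 a 46.4-fold range. Their lowest and highest columns were the same, zinc excess at 2 d and zinc excess at 4 d.

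Averaged over times on the log2(mean TPM + 1) scale, the leaf levels of Sobic.008G004800 from high to low were 9.13 ± 0.36 in iron excess, 7.42 ± 1.93 in zinc excess, 7.42 ± 1.63 in zinc limitation, 7.20 ± 0.95 in the control and 3.49 ± 2.14 in iron limitation (SD over 5 times). Sobic.005G004500 had the same order, with 8.02 ± 0.48, 6.63 ± 2.03, 6.62 ± 1.53, 6.34 ± 0.74 and 2.98 ± 2.07. Between neighbours in this order, the step from control to iron limitation was the one larger than both SDs. In roots the order for Sobic.008G004800 was 4.23 ± 0.43 in iron excess, 4.06 ± 0.31 in the control, 3.75 ± 0.70 in zinc limitation, 3.21 ± 0.92 in iron limitation and 3.13 ± 0.91 in zinc excess (SD over 6 times). For Sobic.005G004500 it was 4.04 ± 0.40 in iron excess, 4.00 ± 0.54 in zinc limitation, 3.94 ± 0.23 in zinc excess, 3.77 ± 0.36 in the control and 3.25 ± 0.72 in iron limitation. No neighbours in the root orders differed by more than the larger of their SDs.

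**Figure D2:**
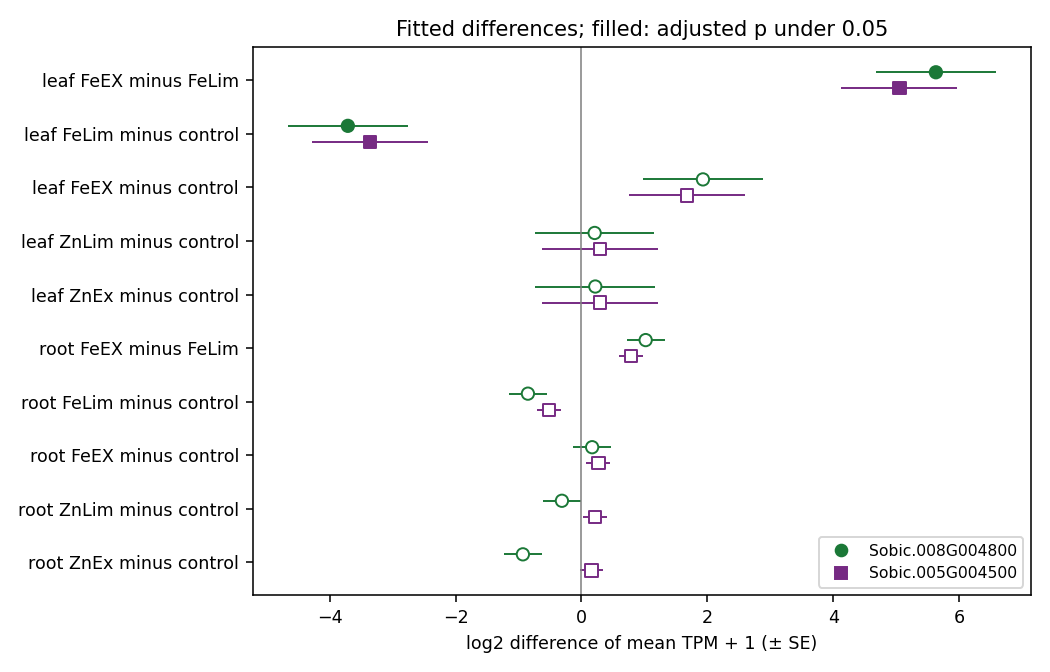
Fitted log2 differences of mean TPM + 1 (x axis, bars are SE) for each comparison (y axis), with circles for Sobic.008G004800 and squares for Sobic.005G004500; filled symbols have an adjusted p under 0.05. Filled symbols appear in 2 leaf comparisons, iron excess minus iron limitation and iron limitation minus control, and all root symbols are open.

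Both ferritin genes were far lower in roots than in leaves. In control plants Sobic.008G004800 stood at 20.52, 19.09, 12.85, 13.94, 14.04 and 13.65 TPM in roots at 0 h and at 2, 4, 7, 14 and 21 d, against 193.2, 144.9, 53.18, 141.6, 183.2 and 332.0 TPM in leaves. Sobic.005G004500 stood at 19.46, 10.01, 8.861, 11.97, 15.34 and 13.79 TPM in control roots, against 45.92, 76.82, 34.27, 95.65, 91.48 and 139.6 TPM in control leaves. The tissues did not overlap for either gene. Control root minus control leaf was -3.23 ± 0.29 log2 units for Sobic.008G004800 and -2.42 ± 0.27 for Sobic.005G004500 (limma, adjusted p = 8.8e-06 and 3.35e-05, 6 shared times). In this comparison 17.7% of 22045 genes were called lower in root and 65.4% higher (83.1% in either direction), so most genes differed between the tissues. The median difference was 1.07.

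Over all solutions, 22 of 26 leaf columns of Sobic.008G004800 exceeded its highest root value, 28.24 TPM, and 21 of 26 leaf columns of Sobic.005G004500 exceeded its highest, 24.61 TPM. The leaf columns that did not were iron-limited leaves from 4 d on for both genes and, for Sobic.005G004500, also zinc excess at 2 d. The highest value was 543 times the lowest in leaves and 14.9 times the lowest in roots for Sobic.008G004800, and 700 times and 5.14 times for Sobic.005G004500.

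No change with age in control plants passed the threshold. Per doubling of day + 1, Sobic.008G004800 changed by 0.15 ± 0.18 and Sobic.005G004500 by 0.32 ± 0.13 log2 units in control leaves (limma, adjusted p = 0.81 and 0.298), where 0.0879% of genes were called. In control roots the slopes were -0.16 ± 0.07 and -0.08 ± 0.10 (limma, adjusted p = 1 for each), where 0 genes were called and 556 had an unadjusted p under 0.05.

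In roots, iron limitation gave lower values of both genes from 2 d on, without passing the threshold. Sobic.008G004800 stood at 25.73, 12.42, 4.373, 3.751, 7.67 and 6.78 TPM in iron-limited roots at 1 h, 2, 4, 7, 14 and 21 d, against 22.59, 19.09, 12.85, 13.94, 14.04 and 13.65 TPM in control roots. Sobic.005G004500 stood at 23.79, 7.682, 6.444, 4.784, 8.608 and 7.357 TPM in iron-limited roots, against 18.29, 10.01, 8.861, 11.97, 15.34 and 13.79 TPM in control roots. Each gene was above the control at 1 h and below it at the 5 later times. For Sobic.008G004800 every iron-limited value from 2 d on lay below the lowest control value. For Sobic.005G004500 all of these also lay below the lowest control value, 8.861 TPM. The margins were narrow, 12.42 against 12.85 TPM for Sobic.008G004800 and 8.608 against 8.861 TPM for Sobic.005G004500. How many of all genes were separated in this way is not given here.

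The fitted difference in iron-limited roots was -0.85 ± 0.30 log2 units for Sobic.008G004800 and -0.52 ± 0.19 for Sobic.005G004500. The SE pooled the spread of all root columns after 0 h. Unadjusted, the limma p-values were 0.00971 and 0.0108, the 9th and 13th smallest among 20500 genes, but the adjusted p was 1 for each. No gene passed: limma called 0 of 20500 (0%), with 101 genes at an unadjusted p under 0.05. Late minus early, the effect differed by -0.53 ± 0.53 for Sobic.008G004800 and -0.79 ± 0.35 for Sobic.005G004500 (limma, adjusted p = 0.717 and 0.534), where 0 genes were called and 1880 had an unadjusted p under 0.05.

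Under iron excess the root values of both genes overlapped the range of the control roots. Sobic.008G004800 stood at 24.41, 14.38, 13.8, 15.97, 14.28 and 28.24 TPM in iron-excess roots at 1 h, 2, 4, 7, 14 and 21 d, and Sobic.005G004500 at 20.78, 15.98, 12.75, 9.781, 15.29 and 21.2 TPM. At 21 d both genes stood above every control root. In the 7 d column of this group the 10 most abundant genes took 35.51% of the TPM, and its mean rests on 3 libraries by its decimals, whereas the labels list 2. The fitted differences were 0.17 ± 0.30 and 0.27 ± 0.19 (limma, adjusted p = 0.906 and 0.724), where 0 of 20500 genes (0%) were called and 1536 had an unadjusted p under 0.05. Late minus early, the effect differed by 0.46 ± 0.53 and -0.32 ± 0.35 (limma, adjusted p = 0.632 and 0.612), where 0.395% of genes were called lower.

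Set against iron limitation, iron excess in the root gave 1.02 ± 0.30 log2 units for Sobic.008G004800 and 0.79 ± 0.19 for Sobic.005G004500 (limma, adjusted p = 0.726 and 0.507). Here 0 genes were called (0%) and 1325 had an unadjusted p under 0.05. The iron-excess value exceeded the iron-limited one at 5 of 6 times for both genes, by at most 4.26-fold and 2.88-fold. The full order iron excess, control, iron limitation held at 4 of 6 times for Sobic.008G004800 and at 3 of 6 for Sobic.005G004500. On 7, 14 and 21 d alone the differences were 1.52 ± 0.27 and 1.02 ± 0.24 (limma, adjusted p = 0.058 and 0.221).

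The size of the iron responses in root and leaf was compared over the 5 shared times. The effect of iron limitation was less negative in root than in leaf by 2.65 ± 0.79 log2 units for Sobic.008G004800 and by 2.66 ± 0.84 for Sobic.005G004500. Neither difference passed the threshold (limma, adjusted p = 0.134 and 0.155), where 0.00644% of 15522 genes were called higher and 0.0966% lower. With the 2 d columns left out they were 3.38 and 3.39 and passed (limma, adjusted p = 0.0409 and 0.022), and without 4 d that of Sobic.008G004800 was 3.25 and passed (limma, adjusted p = 0.0469). The effect of iron excess was lower in root than in leaf, with root minus leaf differences of -1.74 ± 0.79 and -1.40 ± 0.84 (limma, adjusted p = 0.669 and 0.68), where 0 genes were called (0%) and 1141 had an unadjusted p under 0.05.

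**Figure D3:**
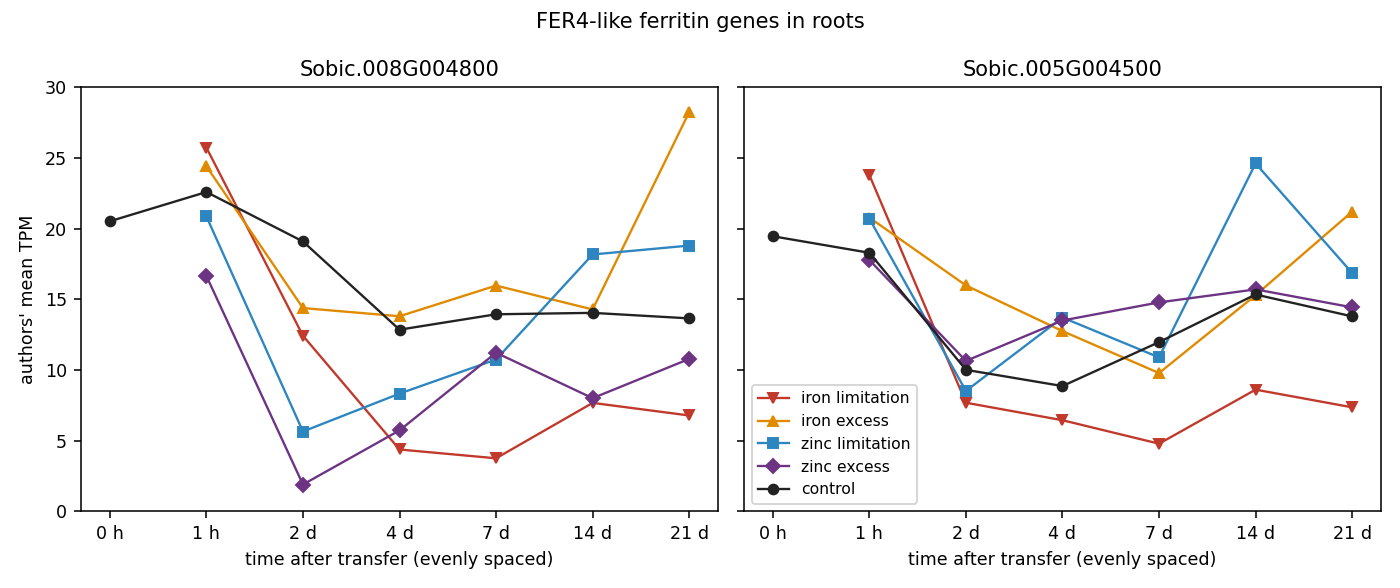
Authors' mean TPM (linear scale) of Sobic.008G004800 (left) and Sobic.005G004500 (right) in roots against time, evenly spaced, with 1 line per solution and 1 point per column. Iron-limited roots lie below the control from 2 d on for both genes, and zinc-excess roots lie below the control at all 6 times for Sobic.008G004800 but at 1 of 6 times for Sobic.005G004500.

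In zinc-excess roots the fitted differences of the copies had opposite signs. Sobic.008G004800 stood at 16.65, 1.895, 5.725, 11.22, 8.004 and 10.78 TPM in zinc-excess roots at 1 h, 2, 4, 7, 14 and 21 d, below the control at 6 of 6 times. Sobic.005G004500 stood at 17.78, 10.64, 13.5, 14.78, 15.7 and 14.43 TPM in zinc-excess roots, above the control at 5 of 6 times. The value of 1.895 TPM at 2 d was the lowest of Sobic.008G004800 in any root. By their decimals, the mean at 2 d rests on 3 libraries and that at 7 d on 4, whereas the labels list 2 and 5.

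The fitted zinc excess difference in the root was -0.93 ± 0.30 log2 units for Sobic.008G004800 and 0.16 ± 0.19 for Sobic.005G004500. Neither passed the threshold (limma, adjusted p = 0.136 and 0.746), in a comparison that called 0.176% of genes lower and 1.21% higher. Without the 2 d columns the difference of Sobic.008G004800 was -0.56 ± 0.24 (limma, adjusted p = 0.434).

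Zinc limitation in the root gave no common direction. Sobic.008G004800 stood at 20.86, 5.646, 8.327, 10.74, 18.17 and 18.8 TPM in zinc-limited roots, below the control at the 4 times up to 7 d and above it at 14 and 21 d. Sobic.005G004500 stood at 20.7, 8.516, 13.71, 10.89, 24.61 and 16.86 TPM and was above the control at 4 of 6 times. The fitted differences were -0.31 ± 0.30 and 0.22 ± 0.19 (limma, adjusted p = 0.816 and 0.799), where 0.00976% of genes were called.

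Because TPM is scaled by length, the level of one copy can be set against the other. The ratio of Sobic.008G004800 to Sobic.005G004500 was between 1.33 and 4.21 in leaf columns and between 0.178 and 1.91 in root columns. Sobic.008G004800 was the more abundant copy in every leaf column. In roots its share varied, and the ratio was 0.936 or less at all 6 zinc-excess times. On the log2 scale, with 1 TPM added to each gene, the ratio averaged -0.16 in root and 0.86 in leaf columns of the same time and solution. The root minus leaf difference was -1.02 ± 0.13 (SE, 26 pairs) and was negative in 26 of 26 pairs (two-sided permutation test within pairs, p = 1e-05, the smallest that 100000 resamples can give). Pairs of 1 time share a harvest but were treated as independent, so this SE and p-value overstate the certainty. In control plants alone, with 1 pair per time, the root minus leaf difference was -0.81 ± 0.31. It was negative in 6 of 6 pairs (two-sided exact permutation test, p = 0.0312, the smallest that 6 pairs allow). That count and its p-value depend on the added 1 TPM. Without it, the ratio at 2 d was 1.91 in control roots and 1.89 in control leaves, the other way round. With 0.1 TPM added, 25 of the 26 pairs over all solutions were negative. Reads that match both copies could be assigned to either, so the ratio carries an uncertainty that the deposited means do not show.

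The ratio was also compared between each treatment and its control, 8 comparisons chosen after the values were seen. In zinc-excess roots the log2 ratio was lower than in control roots by -1.10 ± 0.40 and in the same direction at 6 of 6 times (two-sided exact permutation test, p = 0.0312, adjusted over the 8 comparisons 0.125). In iron-limited roots the difference was -0.33 ± 0.14, at 6 of 6 times (exact permutation test, p = 0.0312, adjusted 0.125), and in zinc-limited roots -0.53 ± 0.25, at 5 of 6 times (exact permutation test, p = 0.0625, adjusted 0.125). In iron-limited leaves it was -0.35 ± 0.10, at 5 of 5 times, where the smallest exact permutation p that 5 times allow is 0.0625 (adjusted 0.125). The other 4 had adjusted p of 0.2 to 0.719. None of the 8 passed after adjustment, and the comparisons share control columns. Without 2 d the zinc excess difference in the root was -0.74 ± 0.23, at 5 of 5 times (exact permutation test, p = 0.0625, the smallest possible).

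**Figure D4:**
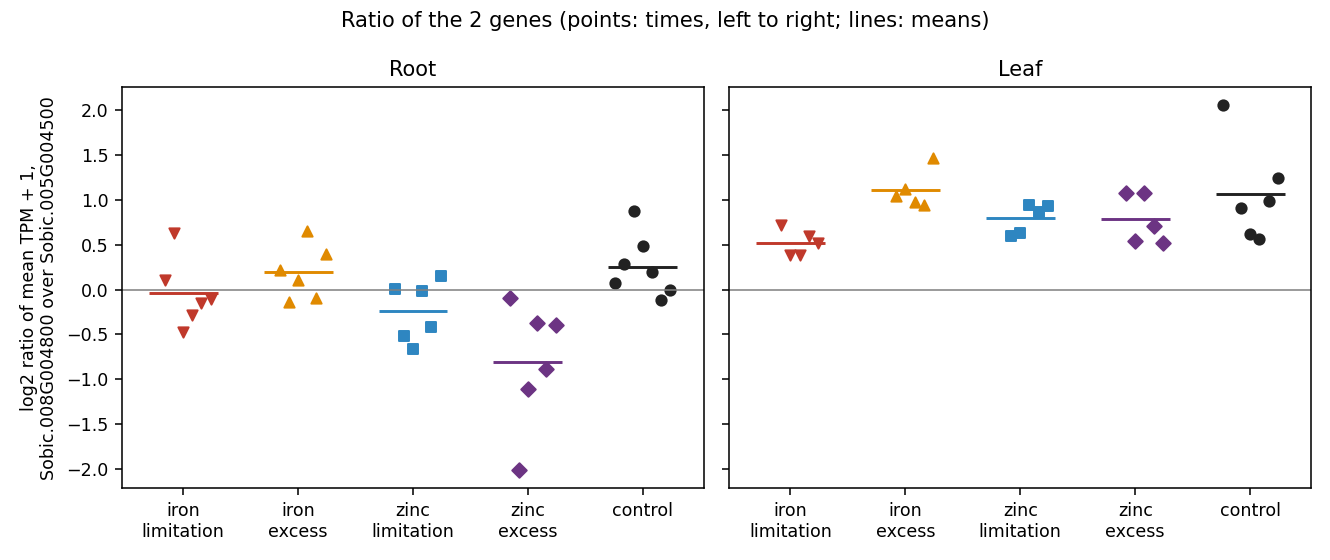
Log2 ratio of Sobic.008G004800 over Sobic.005G004500 (mean TPM + 1, y axis) by solution in roots (left) and leaves (right); points are single columns ordered by time from left to right and lines are their means. Leaf points lie above 0 throughout, and root points reach from 0.87 in the control at 2 d down to -2.01 in zinc excess at 2 d.

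The copies moved together in leaves. Across the 26 leaf columns the log2 levels of Sobic.008G004800 and Sobic.005G004500 had a Pearson r of 0.989, and of 0.969 over the 21 columns without iron limitation. Across the 31 root columns r was 0.705, and 0.562 over the 25 without iron limitation. These are descriptions without a test, since columns of 1 time share a harvest and the copies may share reads.

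The gene neighbourhoods of the copies resemble each other. Their identifiers place them on chromosomes 8 and 5, and of the 10 neighbouring genes of each (5 on either side in identifier order), 8 share their closest Arabidopsis gene with a neighbour of the other copy. The 7 shared Arabidopsis genes include that of ubiquitin-activating enzyme 2, whose homolog is Sobic.008G004600 near Sobic.008G004800 and Sobic.005G004400 near Sobic.005G004500. Of the 20 neighbours, 11 were tested in the leaf and 1 was called in iron limitation minus control, a share near the 8.64% of all genes called there. It was Sobic.008G004700, which encodes an NC-domain protein and lies next to Sobic.008G004800. It differed by -1.08 log2 units in iron-limited minus control leaves and by 1.41 in iron-excess minus iron-limited leaves (limma, adjusted p = 0.029 and 0.00883).

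The annotation pairs 25815 of the genes with an Arabidopsis gene. Among the genes analysed here, the other 3 entries found by the ferritin terms were TSO2-like genes, which encode the small subunit of ribonucleotide reductase, an enzyme of DNA precursor synthesis with a ferritin-like fold and no known role in iron storage. Sobic.010G106300 of these rose in iron-limited leaves, by 1.73 ± 0.42 log2 units (limma, adjusted p = 0.0281). Of the 2 tested in the leaf it was the one that passed, in the direction opposite to the ferritins. Of all genes, 6.77% were called higher in that comparison.

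Some genes that sense or regulate iron changed in the leaf with iron supply. Of 11 iron regulators tested in iron-limited minus control leaves, 4 were lower, 0 higher and 7 did not pass (of all genes, 1.87% were lower and 6.77% higher; list median 0.21, all genes 0.24). The largest of these decreases was that of Sobic.009G160000, -2.84 ± 0.66 log2 units (limma, adjusted p = 0.0268), a homolog of ILR3, a bHLH factor known in Arabidopsis to repress ferritin genes when iron is scarce. A homolog of PYE, a bHLH factor known in Arabidopsis to repress genes of iron storage and transport in iron-starved roots, Sobic.005G177800, differed by -2.38 ± 0.59 (limma, adjusted p = 0.0294). A further PYE-like gene, Sobic.002G385300, differed by -1.58 ± 0.44 (limma, adjusted p = 0.0384). Some regulators that did not pass stood far above the control late. At 7, 14 and 21 d the bHLH38-like Sobic.003G428800 was at 1489, 1503 and 1446 TPM, against 14.69, 1.661 and 4.643 TPM in control leaves. The BTS-like Sobic.009G222200 was at 406.5, 470.8 and 426.7 TPM, against 64.63, 15.66 and 15.17 TPM. At 2 d both were below the control leaf. Not all ILR3-like and PYE-like genes were lower late. At 7, 14 and 21 d the PYE-like Sobic.001G355600 was at 715.9, 709.4 and 783.7 TPM, against 213.3, 14.62 and 6.462 TPM. The ILR3-like Sobic.002G329300 was at 36.61, 62.22 and 73.78 TPM, against 20.32, 31.89 and 40.4 TPM. The ILR3-like Sobic.004G012100 was below the control at each of these times, and the ILR3-like Sobic.007G033800 at 7 d only.

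In iron-excess minus iron-limited leaves, 4 of the 11 regulators were higher, 4 lower and 3 did not pass (of all genes, 2.4% were higher and 5.94% lower; list median -0.11, all genes -0.15). The lower ones included Sobic.003G428800, a homolog of bHLH38, which in Arabidopsis promotes iron uptake, at -6.20 ± 1.74 log2 units (limma, adjusted p = 0.0325). They also included another PYE-like gene, Sobic.001G355600, at -5.45 ± 1.22 (limma, adjusted p = 0.0148). The BTS-like Sobic.009G222200, homolog of an iron-binding ubiquitin ligase, differed by -3.94 ± 0.92 (limma, adjusted p = 0.0156).

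Among the 9 vacuolar iron transport and efflux genes tested in the leaf, iron excess minus iron limitation gave 3 higher and 1 lower (of all genes, 2.4% and 5.94%; list median -0.22, all genes -0.15). The VIT1-like Sobic.002G194600 is a homolog of a transporter that loads iron into the vacuole. It had the largest positive difference of all genes tested, 7.11 ± 1.15 log2 units (limma, adjusted p = 0.00696), ahead of the ferritins. Sobic.006G276300, found by its match to another Arabidopsis gene of the vacuolar iron transporter list, differed by 3.28 ± 0.67 (limma, adjusted p = 0.0112). The NRAMP2-like metal transporter Sobic.001G462500 differed by -2.64 ± 0.64 (limma, adjusted p = 0.0176) and was the 1 member of the 9 called, higher, in iron-limited minus control leaves, where 6.77% of all genes were called higher, with 0 of the 9 lower.

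Of 4 genes for iron chelation and long-distance transport, 1 was higher and 1 lower in each leaf comparison. In iron limitation minus control the list median was 0.00, against 0.24 for all genes, of which 6.77% were higher and 1.87% lower. In iron excess minus iron limitation it was 0.21, against -0.15 for all genes, of which 2.4% were higher and 5.94% lower. The OPT3-like Sobic.001G087700, homolog of a phloem transporter that reports shoot iron status in Arabidopsis, differed by 2.94 ± 0.88 log2 units in iron-limited minus control leaves and by -4.47 ± 0.88 in iron-excess minus iron-limited leaves (limma, adjusted p = 0.0449 and 0.0105). The NAS4-like Sobic.001G151400, whose product makes the metal chelator nicotianamine, went the other way, by -0.94 ± 0.23 and 1.24 ± 0.23 (limma, adjusted p = 0.029 and 0.00883).

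Of 17 genes for plastid iron import and iron-sulfur cluster assembly, 3 were higher and 1 lower in iron-limited minus control leaves, where 6.77% of all genes were higher and 1.87% lower (list median 0.28, all genes 0.24). In iron-excess minus iron-limited leaves 2 were higher and 3 lower, where 2.4% of all genes were higher and 5.94% lower (list median -0.35, all genes -0.15). The ABC1-like Sobic.003G343400, an assembly scaffold homolog, differed by -1.01 ± 0.29 and 1.39 ± 0.29 (limma, adjusted p = 0.041 and 0.0127). The PIC1-like Sobic.004G070800, homolog of a permease of the chloroplast inner envelope, went against the ferritins by 0.91 ± 0.19 and -1.16 ± 0.19 (limma, adjusted p = 0.0227 and 0.00696). Of 8 haem and iron antioxidant enzymes, 3 were higher and 2 lower in each comparison, beside the same shares of all genes (list medians 0.06 and -0.04). The CAT1-like catalase Sobic.004G011566 differed by -3.63 ± 0.86 and 4.02 ± 0.86 (limma, adjusted p = 0.027 and 0.0129). The FSD3-like iron superoxide dismutase Sobic.010G033000 differed by 1.11 ± 0.28 and -1.52 ± 0.28 (limma, adjusted p = 0.0301 and 0.00832).

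In roots none of the listed genes was called in iron limitation or iron excess minus control, where limma called 0 genes in all. In zinc-excess minus control roots 1 of the 17 genes of the plastid list was called and 0 of the other lists, where 1.39% of all genes were called. It was a SUFS-like gene for cluster assembly, Sobic.005G104200, at 0.93 ± 0.22 (limma, adjusted p = 0.0291). In zinc-excess minus control leaves none was called.

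Genes were also ranked by how closely their leaf pattern followed that of the ferritins. Likeness was Pearson r of log2 level with the mean of both ferritin genes over 26 leaf columns, among 12033 genes with a mean of at least 5 TPM. The highest r was 0.954, for the PYE-like Sobic.005G177800, and the next were the NYC1-like Sobic.003G010600 at 0.94, a homolog of a reductase that starts chlorophyll b breakdown, and the ABC1-like Sobic.003G343400 at 0.937. Sobic.002G297900, described as binding an iron-sulfur cluster, also reached 0.937, and the DER2.2-like Sobic.001G009300 0.93. The lowest r were -0.941 for the ORG1-like Sobic.003G241900, -0.936 for the IAA3-like Sobic.008G157000, -0.934 for the undescribed Sobic.001G107800, -0.931 for the OPT3-like Sobic.001G087700 and -0.925 for the NRAMP6-like Sobic.002G095600. Without the iron-limited columns the 5 highest gave 0.82 to 0.867 and the 5 lowest -0.885 to -0.787.

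**Figure D5:**
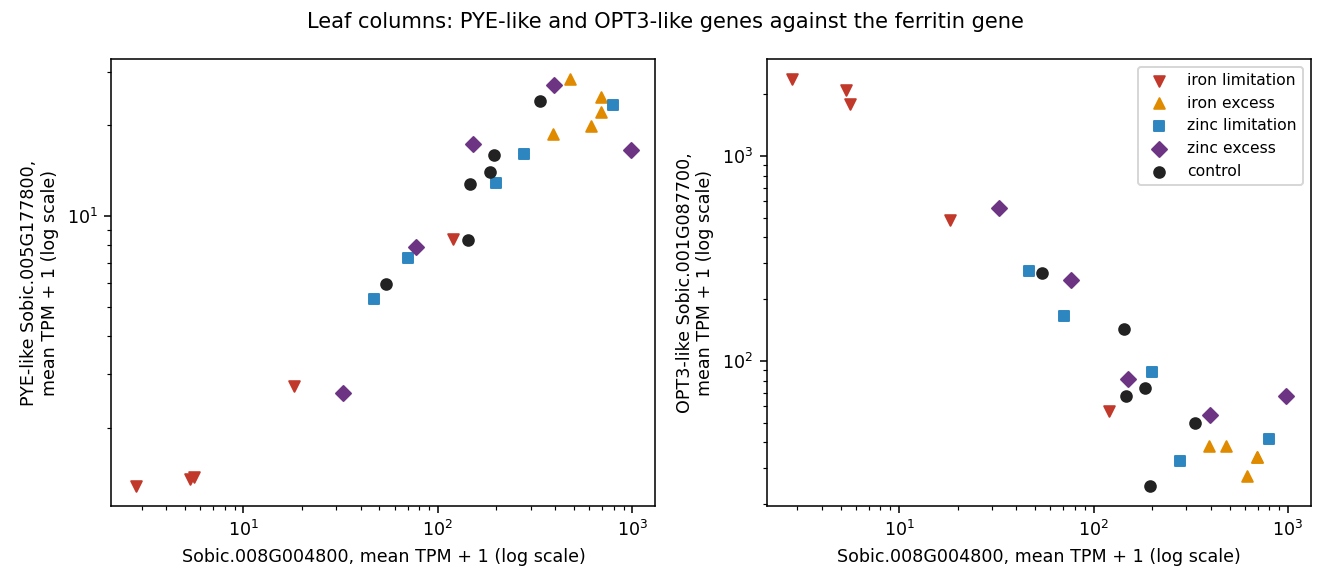
Mean TPM + 1 of the PYE-like Sobic.005G177800 (left) and the OPT3-like Sobic.001G087700 (right) on the y axis against that of Sobic.008G004800 on the x axis, both on log scales, with 1 point per leaf column coloured by solution. The PYE-like gene has r = 0.954 and the OPT3-like gene r = -0.931 with the ferritin mean, and columns of all solutions lie along the same bands.

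Levels were also read in the 16 leaf columns with equal iron supply. The PYE-like, ORG1-like and OPT3-like genes had been picked for their r over the 26 leaf columns, which include these 16. Over the 16 columns the r with the ferritin mean was 0.941 for the VIT1-like Sobic.002G194600, 0.846 for the PYE-like Sobic.005G177800, -0.864 for the ORG1-like Sobic.003G241900, -0.743 for the OPT3-like Sobic.001G087700 and -0.543 for the bHLH38-like Sobic.003G428800. In zinc-excess leaves at 2 d, where both ferritin genes were at their lowest of these columns, the OPT3-like gene stood at 553.5 TPM, the bHLH38-like gene at 503.3 TPM and the VIT1-like gene at 0.04633 TPM. In zinc-excess leaves at 4 d, where both ferritins were at their highest, the values were 66.36, 5.503 and 342.8 TPM. The control leaf at 4 d, with low ferritin, had 268.1 TPM of the OPT3-like gene and 149.7 TPM of the bHLH38-like gene, against 66.4 and 3.468 TPM in the control leaf at 2 d. The zinc-limited leaf at 21 d, with the second highest ferritin level, had 539.0 TPM of the VIT1-like gene. These columns were examined after their values were seen and have no test.

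In roots the closest genes were less alike, among 15416 genes with a mean of at least 5 TPM over 31 columns. The highest r were 0.771 for the ILR3-like Sobic.009G160000, 0.698 for Sobic.001G088200, 0.695 for Sobic.001G079700, 0.679 for the VIT1-like Sobic.002G194600 and 0.676 for Sobic.003G384700. Without the iron-limited columns they were 0.733, 0.555, 0.59, 0.731 and 0.534.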

How the data were processed

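The table holds the authors' mean TPM per tissue, time and solution, per the file headers. The submitters' processing notes name DRAGEN; which version, genome build and annotation were used is not given in the sources used here. In all, 177 libraries are labelled. Of 34924 rows, 795 repeat a gene and were dropped, leaving 34129 genes. With the repeats all 57 deposited columns sum to over 1000000. The 8 with the highest sums, 1020174.5 or more, had their unit recorded as signal, but the deposited numbers there are mean TPM like the rest. The means carry no SD or n, so the sampling time was the replicate.

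Values were taken as log2(mean TPM + 1), which understates changes at low levels. Genes needed a mean of at least 1 TPM over the tissue's columns. limma 3.58.1 (R 4.3.3, trend on) fitted solution and time on the columns after 0 h, with Benjamini-Hochberg adjustment over all genes tested and a threshold of 0.05; errors are SE of the fitted difference. The root and leaf contrasts used the root minus leaf difference at each time. The fit was tested on simulated data. Ratios were tested by permutation in Python 3.11.15 (numpy 2.4.6, pandas 2.3.3, scipy 1.17.1), and figures used matplotlib 3.10.9. Gene lists follow the Arabidopsis gene in the deposited annotation, up to 3 members of a list are named per comparison, and "-like" marks that match. The 2 genes and the lists were chosen with earlier results of these data known. Other columns looked at singly were chosen after their values were seen. Alternatives varied the pseudocount (0.1 and 5), filter, scaling, columns in the fit, trend, early and late boundary and times. No genome of the annotation's build was used, so coordinates and sequences are not given.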

Additional observations from a re-analysis of the deposited data

Results flagged for a closer look

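The zinc excess effect on Sobic.008G004800 in roots at 2 d stood apart from the other times. The log2 difference of zinc excess minus control was -2.79 there and between -1.04 and -0.29 at the other 5 times. The gap to the nearest time was 0.70 of the whole range, where Dixon's 95% critical value for 6 values is 0.625. The level was 1.895 TPM in zinc-excess roots, against 19.09 TPM in control roots. Of 20 groups of differences tested in this way, 1 stood apart, and chance gives about 1 in 20. Sobic.005G004500 in the same columns was at 10.64 TPM in zinc-excess roots, against 10.01 TPM in control roots.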

How the results depend on the processing

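Of 394 values under alternatives, 364 kept their direction and their side of the threshold, 16 no longer passed it, 3 newly passed and 11 changed sign. Iron limitation minus control in the leaf stayed at -3.71 for Sobic.008G004800 and -3.36 for Sobic.005G004500 but no longer passed without the low-level filter (limma, adjusted p = 0.0791 and 0.0884) or with only the columns of both groups (0.0848 and 0.0854). Leaving out 1 time at a time gave -4.56 to -2.91 and -4.18 to -2.66. For iron excess minus iron limitation the range was 5.19 to 6.62 and 4.64 to 5.96, for zinc limitation in the leaf -0.20 to 0.68 and -0.11 to 0.69, and for zinc excess -0.77 to 0.81 and -0.69 to 0.95. For root minus leaf in iron limitation it was 1.81 to 3.38 and 1.99 to 3.39, and for the leaf control slope of Sobic.008G004800 -0.064 to 0.56. With rescaled columns, leaf zinc excess was -0.0042 for Sobic.008G004800. With the early and late boundary after 7 d, late minus early in the root was 0.00082 for Sobic.008G004800 in iron limitation and 0.038 for Sobic.005G004500 in iron excess. The cause of these changes was not tested.

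The counts of genes called moved more. Iron limitation in the leaf called 1475 genes, with 0 to 4616 across the alternatives. Iron excess minus iron limitation called 1423, with 2 to 3226, and zinc excess in the root 284, with 0 to 426. No paired analysis was possible because the deposited columns are means and carry no replicate number to pair plants by; columns were matched by time or by time and solution. Unknown read depth and unknown spread between plants limit all values.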
